A study of Danio rerio with 2 samples.

Results

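The Notch signalling genes that accompany artery formation, and the arterial surface ligand efnb2a, were followed in single cells of zebrafish embryos. The genes were chosen by identifier or by name. They comprised the ligands dll4 and dlc, the receptors notch3, notch1a and notch1b, the targets hey2 and her6, and efnb2a. Of these 8 named genes, 6 were matched to an identifier among the 27931 genes measured. They were dll4 (ENSDARG00000070425), dlc (ENSDARG00000002336), notch3 (ENSDARG00000052139), hey2 (ENSDARG00000013441), efnb2a (ENSDARG00000020164) and 1 gene listed as NOTCH1 (ENSDARG00000052094). The NOTCH1 entry was notch1a or notch1b, and the name table did not settle which, so it is called NOTCH1 throughout. No entry carried the name her6. A gene listed as HES1 (ENSDARG00000006514) bears the name of the mammalian relative of her6 and may be her6 itself, which was not settled. This gene is described beside the 6 members and was not counted among them.

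Notch receptors are cut when a Delta or Jagged ligand on a neighbouring cell binds them, and the released intracellular part enters the nucleus and joins RBPJ to turn on hes and hey genes. In the vertebrate trunk, vascular endothelial growth factor induces dll4 in the forming dorsal aorta, and Notch activity there favours arterial over venous fate. Ephrin-B2, encoded by efnb2a and its duplicate in zebrafish, marks arterial endothelium and binds the receptor EphB4, which is enriched on veins.

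The cells came from untreated embryos of the line Tg(-2.3 etv2:GFP)zf372, in which a fragment upstream of the vascular regulator etv2 drives GFP. GFP-positive cells were sorted from pooled embryos and captured on a Fluidigm C1 chip, giving 48 cells at the 20 somite stage and 48 cells at the 15-18 somite stage. Each stage was 1 sample with its own collection day and chip, so stage, day and chip cannot be told apart, and no test between stages or populations was possible. Every difference below is therefore a description without a p-value.

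Population names were those of the study, which clustered the cells on their expression, so that a difference between populations is not independent of how they were drawn. They were the second endothelial group (EC2, 7 cells), arterial cells (13), venous cells (8), endothelial progenitor cells (EPC, 14), tailbud cells (28), epithelial cells (10), erythrocytes (5) and macrophages (11). The first 4 populations form the 42 endothelial cells, 18 at 20 somites and 24 at 15-18 somites. Although the labels call all cells vascular endothelial, only these 42 formed endothelial populations. Each of them carried at least 6 of 8 endothelial markers, whereas the median was 3 or 4 markers in the other populations. The endothelial cells had between 4329 and 7337 genes above 1 TPM (a length-normalised share of all transcripts of the cell). The sequencing depth of each single cell was unknown, since TPM does not keep it and the study gives only a range of reads per cell.

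Below, a gene was called detected in a cell above 1 TPM, and its level in a population was the mean of log2(TPM + 1) over the cells of each stage, with both stages weighted equally. A difference of at least 1 on this log2 scale was counted as higher or lower. The scale understates changes of low genes. Levels of different genes are per transcript length, as TPM is.

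All but 1 of the 6 members were higher in endothelial cells than in the other populations by this measure. For comparison, 14.2% of 15147 genes were higher by as much and 4.11% were lower. The differences were 5.54 for dll4, 4.90 for hey2, 2.46 for NOTCH1, 2.42 for efnb2a, 2.12 for dlc and 0.92 for notch3. Detection ran from 34 of 42 endothelial cells for dll4 and for hey2, through 28 for NOTCH1 and 26 for efnb2a, to 21 for dlc and for notch3.

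Epithelial cells, erythrocytes and macrophages gave the background of detection. Among these 26 cells, dll4, dlc, NOTCH1 and hey2 were each above 1 TPM in 0 cells, which allows a share of up to 11.5% by the limit of 3 cells and of 13.2% by the exact 95% interval. The other 2 members had sources outside the endothelium. notch3 was detected in 6 of 10 epithelial cells and in 1 erythrocyte, and efnb2a in 4 of 10 epithelial cells and in 1 macrophage. These 26 cells were no poorer in genes, with a median of 5872.5 detected genes against 5356.5 in the endothelial cells.

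**Figure D1:**
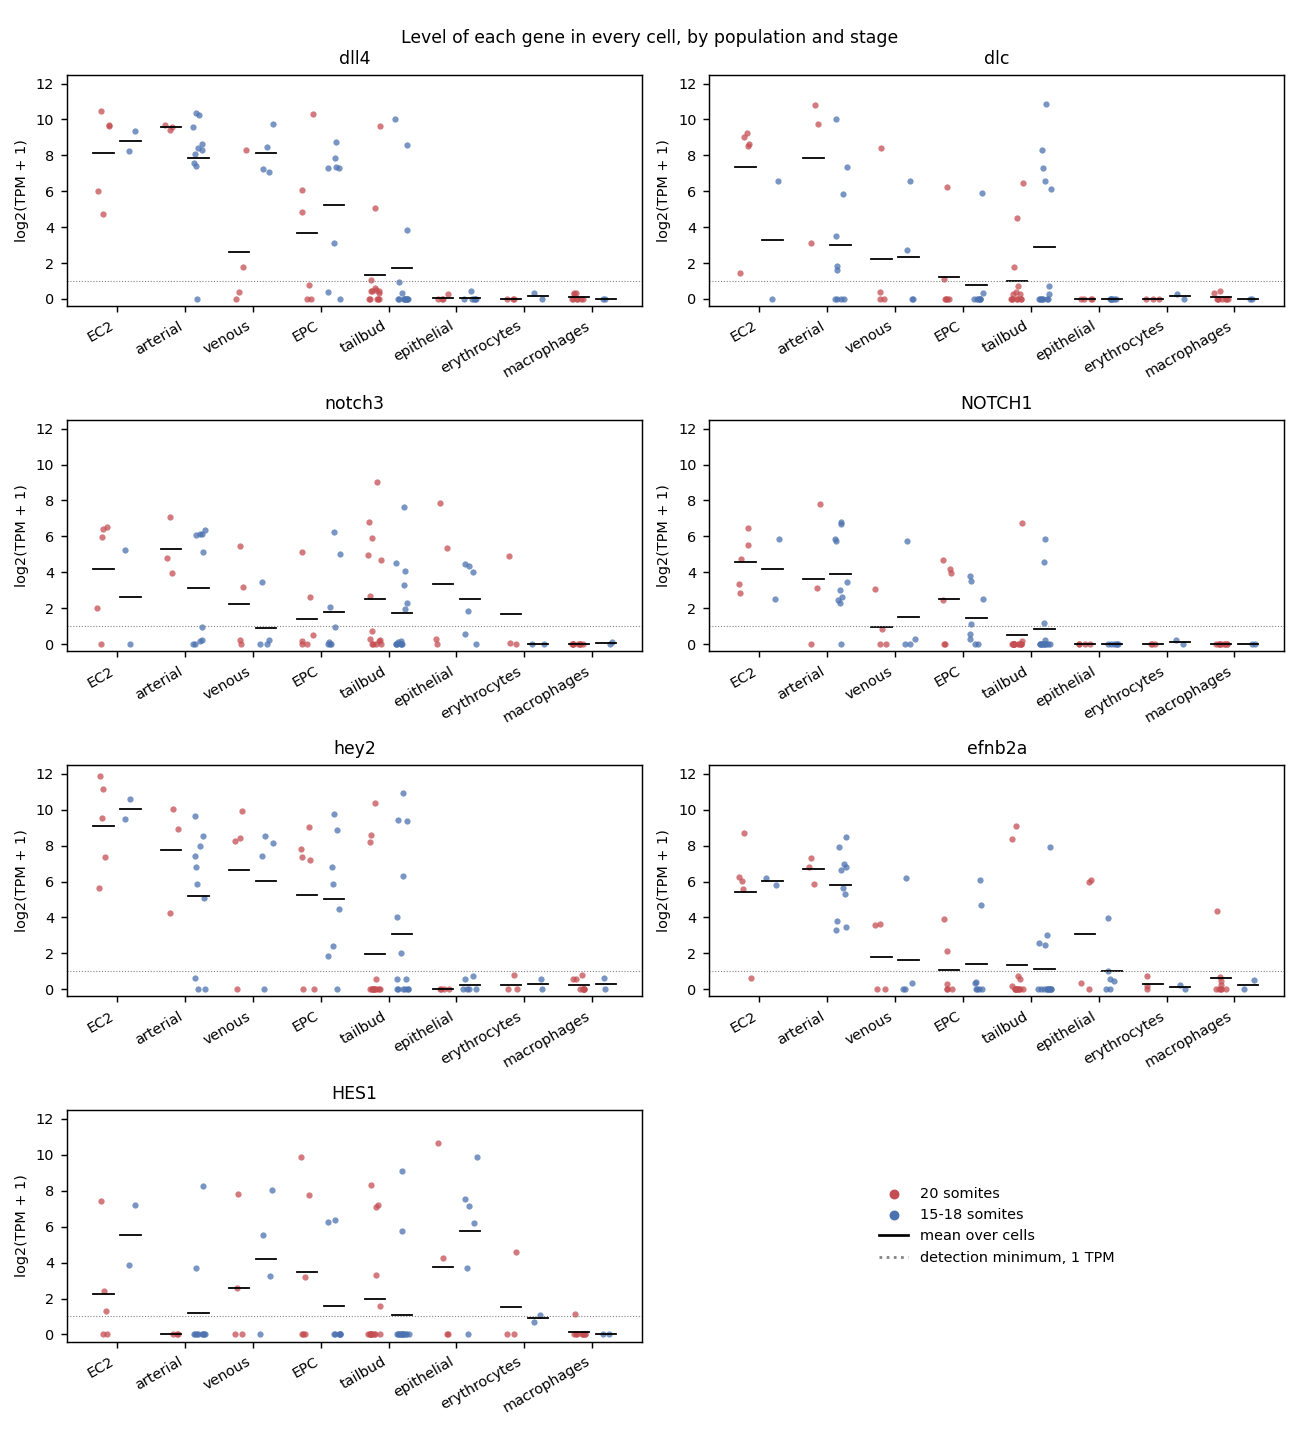
Level of the 6 members and of HES1 in each of the 96 cells, as log2(TPM + 1) on the vertical axis, by population on the horizontal axis and by stage in colour. Bars are means over the cells of a stage and the dotted line lies at 1 TPM. dll4, dlc, NOTCH1 and hey2 stay under the line in all 26 epithelial, erythrocyte and macrophage cells.

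The comparison of arterial with venous cells addresses which of these genes accompany arterial identity. The difference between these populations was at least 1 log2 unit upward for 5 of the 6 members, and for none downward. Across all 11521 genes tested, 16.9% were higher and 17.4% lower by as much. HES1, outside the count of members, had a difference of -2.80. The median difference of the members was 2.90, against -0.01 for all genes. The arterial genes used by the study to recognise this population include several of these members, so the direction was not independent evidence.

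dll4, an endothelial Delta ligand, separated arterial from venous cells at 20 somites and not at 15-18 somites. At 20 somites its level was 691, 768 and 831 TPM in the 3 arterial cells, against 0, 0.28, 2.47 and 310 TPM in the 4 venous cells. All arterial cells lay above all venous cells at this stage. At 15-18 somites dll4 ranged from 0 to 1319 TPM in 10 arterial cells, with a median of 325 TPM, against 135, 152, 353 and 865 TPM in the 4 venous cells. The groups overlapped there. On the log2 scale the arterial minus venous difference was 6.97 at 20 somites and -0.29 at 15-18 somites, and 3.34 with both stages weighted equally.

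In EC2 cells dll4 had 25.9, 64.1, 792, 814 and 1417 TPM at 20 somites and 300 and 651 TPM at 15-18 somites, so that every EC2 cell had the ligand. In EPC it had a median of 14.3 TPM with a range of 0 to 1279 TPM at 20 somites, and a median of 156 TPM with a range of 0 to 427 TPM at 15-18 somites. The order of levels was arterial (8.72), EC2 (8.45), venous (5.38) and EPC (4.46). The values of the stages overlapped between each population and the next in that order. Tailbud cells followed at 1.51, and erythrocytes, epithelial cells and macrophages lay between 0.05 and 0.08.

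dlc, a Delta ligand also known from somite segmentation, was sparser and more uneven than dll4. It had 7.54, 847 and 1763 TPM in arterial cells at 20 somites, against 0, 0, 0.31 and 338 TPM in venous cells. At 15-18 somites it ranged from 0 to 1027 TPM in arterial cells with a median of 2.36 TPM, against 0, 0, 5.53 and 95.8 TPM in venous cells. The arterial and venous cells overlapped at both stages, and the differences were 5.67 and 0.69 log2 units at 20 and at 15-18 somites.

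EC2 cells at 20 somites carried dlc at 1.70, 364, 388, 521 and 596 TPM, and the 2 EC2 cells of 15-18 somites had 0 and 94.4 TPM. In EPC it was above 1 TPM in 3 of 14 cells. The level was 5.32 in EC2 and 5.44 in arterial cells, against 2.26 in venous cells and 1.01 in EPC, with a difference of 4.44 between arterial cells and EPC. Tailbud cells, at 1.95, lay between venous cells and EPC, and the remaining populations between 0.00 and 0.07. The levels of EC2 and arterial cells lay within each other's stage values, and both stages of both populations lay above both stages of venous cells.

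Both receptors were higher in arterial than in venous cells at each stage. notch3, a receptor best known from mural cells but also present in early endothelium, had 14.7, 26.8 and 133 TPM in arterial cells at 20 somites, against 0, 0.17, 7.99 and 43.1 TPM in venous cells. At 15-18 somites it ranged from 0 to 79.6 TPM in arterial cells, with a median of 17.5 TPM, against 0, 0, 0.15 and 10.1 TPM in venous cells. The cells of the groups overlapped at both stages. The differences were 3.07 and 2.19 log2 units at 20 and 15-18 somites.

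NOTCH1, the receptor most often tied to arterial fate, had 0, 7.87 and 224 TPM in arterial cells at 20 somites, against 0, 0, 0.76 and 7.35 TPM in venous cells. At 15-18 somites its range was 0 to 112 TPM in arterial cells with a median of 8.49 TPM, against 0, 0, 0.24 and 52.3 TPM in venous cells. Overlap was again present at both stages, while the share of cells with the transcript differed more, at 11 of 13 arterial and 2 of 8 venous cells. The differences were 2.68 and 2.38 log2 units at 20 and 15-18 somites.

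NOTCH1 was detected in all 7 EC2 cells, between 4.67 and 88.3 TPM, and in 8 of 14 EPC, so its order of levels was EC2 (4.38), arterial (3.77), EPC (2.005) and venous (1.24). EC2 lay above arterial cells at both stages, by 0.61 on average. Tailbud cells had 0.67, erythrocytes 0.05, and epithelial cells and macrophages 0.00. notch3 had the order arterial (4.19), EC2 (3.41), epithelial (2.95), tailbud (2.13), EPC (1.60), venous (1.57), erythrocytes (0.83) and macrophages (0.03). Its arterial and EC2 levels overlapped between stages.

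hey2 is a basic helix-loop-helix repressor and Notch target that directs arterial fate in zebrafish. In the mean of both stages its arterial minus venous difference was smaller than those of the ligands and receptors. It had 18.3, 489 and 1042 TPM in arterial cells at 20 somites, against 0, 308, 339 and 959 TPM in venous cells. At 15-18 somites it ranged from 0 to 804 TPM in arterial cells with a median of 84.5 TPM, against 0, 172, 282 and 366 TPM in venous cells. Arterial and venous cells overlapped at both stages. The difference was 1.096 at 20 somites, -0.83 at 15-18 somites and 0.14 on average.

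EC2 cells had the highest mean level of hey2 at both stages. They had 49.5, 162, 742, 2268 and 3749 TPM at 20 somites and 705 and 1572 TPM at 15-18 somites. At 20 somites EC2 and arterial cells overlapped, in that the EC2 cells with 49.5 and 162 TPM lay below the arterial cells with 489 and 1042 TPM. At 15-18 somites 1 of the 2 EC2 cells lay above every arterial cell, and the other above all but 1. In the mean of both stages, hey2 alone of the 6 members differed by 1 log2 unit or more between EC2 and arterial cells, by 3.11, 1.37 at 20 somites and 4.84 at 15-18 somites. In the same comparison 24.4% of all genes were higher in EC2 and 13.2% were lower. The other 5 members differed by between -0.78 and 0.61 in that mean, while at 20 somites alone dll4 differed by -1.47, efnb2a by -1.24 and notch3 by -1.09. The order of hey2 levels was EC2 (9.58), arterial (6.47), venous (6.34), EPC (5.12), tailbud (2.53), erythrocytes (0.28), macrophages (0.26) and epithelial cells (0.11). The stage values of arterial and venous cells overlapped, while both values of EC2 lay above those of every other population, and both values of venous cells above those of EPC.

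Of the 6 members, efnb2a had the largest arterial minus venous difference in the mean of both stages, although dll4 and dlc differed more at 20 somites. It was detected in every arterial cell, with 57.8, 113 and 159 TPM at 20 somites and a range of 8.71 to 358 TPM with a median of 74.0 TPM at 15-18 somites. Venous cells had 0, 0, 10.9 and 11.4 TPM at 20 somites and 0, 0, 0.29 and 72.5 TPM at 15-18 somites. All arterial cells lay above all venous cells at 20 somites, and a single venous cell reached the arterial range at 15-18 somites. The differences were 4.88 and 4.19 log2 units at 20 and 15-18 somites, and the mean of 4.53 ranked 29 among the 11521 genes.

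In EC2 efnb2a had 0.55, 47.3, 64.7, 74.2 and 408 TPM at 20 somites and 55.3 and 72.7 TPM at 15-18 somites. In EPC it was above 1 TPM in 4 of 14 cells, with a maximum of 66.0 TPM. Between arterial cells and EPC the difference was 5.01, rank 24 of the 11521 genes tested. efnb2a is among the arterial genes of the study, so its ranks against EPC and against venous cells were not independent of the naming. Levels ran from arterial (6.25) and EC2 (5.72) down to epithelial (2.05), venous (1.72), EPC (1.25), tailbud cells (1.25), macrophages (0.44) and erythrocytes (0.21). The stage values of arterial cells and EC2 overlapped, and both stood above all stage values of venous cells and EPC.

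HES1 went in the other direction between arterial and venous cells. It was listed at 0 in all 3 arterial cells of 20 somites and was detected in 2 of 10 arterial cells of 15-18 somites, at 11.97 and 313 TPM. Venous cells had 0, 0, 4.99 and 221 TPM at 20 somites and 0, 8.71, 45.3 and 258 TPM at 15-18 somites. The arterial minus venous differences were -2.59 at 20 somites and -3.01 at 15-18 somites. EC2 cells were higher than arterial cells by 3.29, and 7 of 10 epithelial cells also held the transcript, up to 1648 TPM, so that the gene was not restricted to endothelium.

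**Figure D2:**
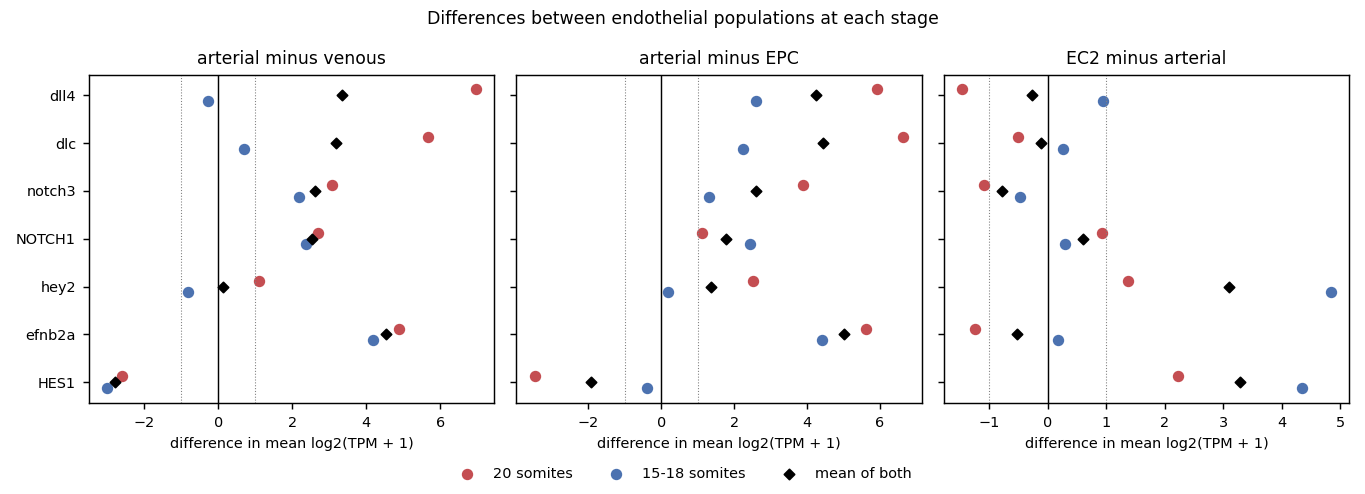
Differences in mean log2(TPM + 1) on the horizontal axis for the 6 members and HES1, between arterial and venous cells, arterial cells and EPC, and EC2 and arterial cells. Circles give each stage, diamonds the mean of both and dotted lines mark 1 log2 unit; dll4 in arterial minus venous cells lies at 6.97 at 20 somites and -0.29 at 15-18 somites, and efnb2a at 4.88 and 4.19.

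Against EPC, the presumed precursors, arterial cells had all 6 members higher by at least 1 log2 unit, where 14.7% of genes were higher and 18.2% lower. HES1, outside this count, had a difference of -1.93. The differences of the members not yet given were 4.26 for dll4, 2.59 for notch3, 1.77 for NOTCH1 and 1.35 for hey2. Members already present in EPC were hey2, in 11 of 14 cells, dll4 in 9 and NOTCH1 in 8, whereas notch3, efnb2a and dlc were found in 5, 4 and 3 cells. The arterial comparisons with venous cells and with EPC share the same arterial cells.

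Ligand, receptor and target were then read together in each cell, counting dll4 or dlc as ligand, notch3 or NOTCH1 as receptor, and hey2 or efnb2a as target. A ligand was found in 35 of 42 endothelial cells, a receptor in 33 and a target in 38. All 3 roles were found in 29 of 42 endothelial cells (69.0%, exact Clopper-Pearson 95% interval 52.9 to 82.4%, which covers the counting of cells only). Whether they met more often than roles this common would without any link was not tested. The cells with all 3 roles made up 7 of 7 EC2, 12 of 13 arterial, 3 of 8 venous and 7 of 14 EPC cells. Outside the endothelial populations they were 4 of 28 tailbud cells and 0 of the 26 epithelial, erythrocyte and macrophage cells, with the same limits as above. The share was 12 of 18 endothelial cells at 20 somites and 17 of 24 at 15-18 somites. efnb2a and dll4 are among the arterial genes by which the study recognised arterial cells, and efnb2a was detected in all 13 of them. The known arterial markers listed by the study also include hey2, dlc and notch3. The ligand, receptor and target roles of arterial cells were therefore not independent of the arterial genes of the study. With hey2 alone as target, 10 of 13 arterial cells held it with a receptor, and 10 with a ligand. Over all 42 endothelial cells these counts were 28 and 30. All 13 arterial cells held a receptor, so their count of hey2 with a receptor is that of hey2 itself.

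Gene number per cell did not move with this count. Endothelial cells with all 3 roles had a median of 5326 detected genes, against 5565 in the 13 without. The number of members in a cell and its number of detected genes had a Spearman rho of 0.08 over the 42 cells. All 6 members occurred together in 10 endothelial cells, namely 5 EC2, 4 arterial, 0 venous and 1 EPC. The median number of members per cell was 6 in EC2, 5 in arterial, 3 in venous, 2.5 in EPC and 1 in tailbud cells.

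**Figure D3:**
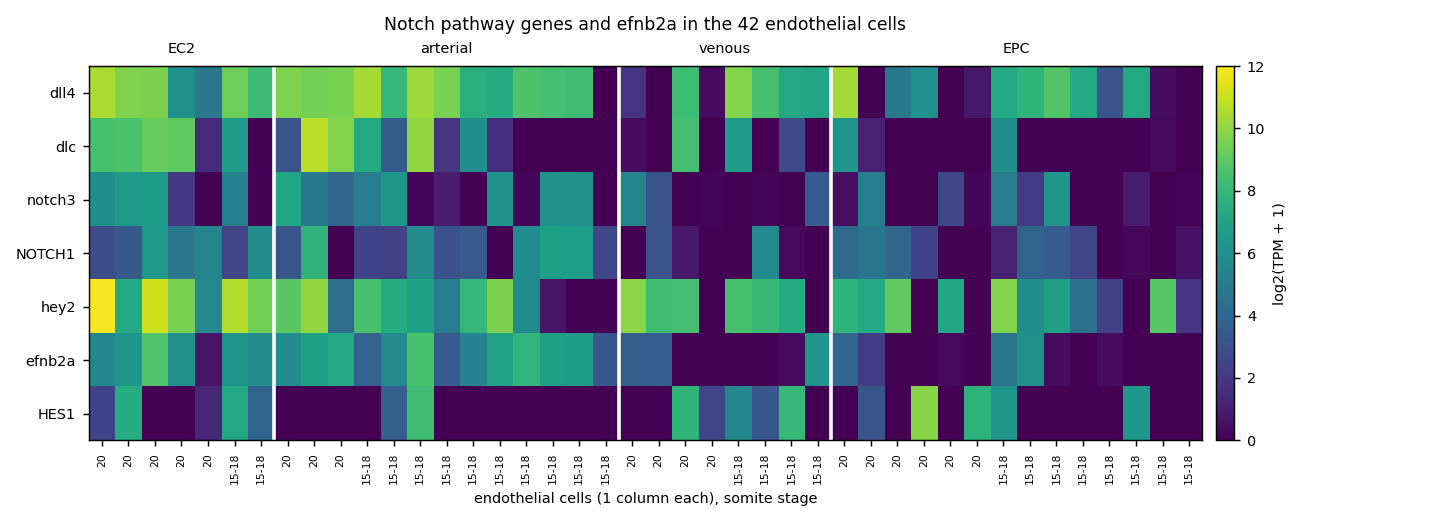
The 6 members and HES1 (rows) in the 42 endothelial cells (columns, labelled by somite stage), coloured by log2(TPM + 1) and divided by white lines into EC2, arterial, venous and EPC cells. Filled columns concentrate in EC2 and arterial cells. There 19 of 20 cells hold a ligand, a receptor and a target among the members, against 10 of 22 venous and EPC cells.

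Which of the counted roles was missing differed between populations. A counted ligand without notch3 or NOTCH1 was seen in 5 endothelial cells, of which 3 were venous and 2 EPC. It was seen in none of the 20 EC2 and arterial cells. A counted receptor without dll4 or dlc was seen in 3 cells, and a target without either role in 2. In venous cells that held dll4 and dlc together, which were 3 of 8, neither receptor was detected and neither was efnb2a, whereas hey2 was detected in all 3. By contrast, the 9 arterial cells with both ligands all held a receptor, hey2 and efnb2a. The other 4 arterial cells also all held a receptor and efnb2a, so only hey2 differed, being found in 1 of these 4. Other Notch genes were not counted, so cells missing a counted role need not lack every ligand or receptor gene. jag2b, another ligand gene, was detected in 39 endothelial cells, including 8 venous cells and 12 EPC. notch2, another receptor gene, was detected in 17 endothelial cells, including 1 venous cell and 7 EPC.

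At the minimum of 1 TPM, efnb2a was not detected without notch3 or NOTCH1 in any endothelial cell. notch2 was not counted as a receptor here. All 26 endothelial cells with efnb2a also held notch3 or NOTCH1, and in the 9 endothelial cells without either receptor efnb2a was detected in 0. These 9 cells were 4 venous cells and 5 EPC. In EPC alone the same counts were 4 of 9 cells with a receptor and 0 of 5 without, and in venous cells 3 of 4 with and 0 of 4 without. Every arterial and EC2 cell held a receptor, so no such contrast existed there. hey2 did not show this pattern, being found in 28 of 33 cells with a receptor and in 6 of 9 without. Tailbud cells did not show it for efnb2a, which was found in 3 of 13 with a receptor and 3 of 15 without. The pattern depended on the minimum and did not hold at 10 TPM. An arterial cell of 15-18 somites had 39.0 TPM of efnb2a with NOTCH1 at 9.95 and notch3 at 0 TPM. A venous cell of 20 somites had 10.9 TPM with notch3 at 7.99 and NOTCH1 at 7.35 TPM. Above 0 TPM, an EPC of 15-18 somites had 0.27 TPM of efnb2a and 0 TPM of both receptors. All 9 cells without a receptor were venous cells or EPC, where efnb2a was detected in only 7 of 22 cells. The pair is reported from among many pairs that were read. How many genes detected about as often as efnb2a were also undetected in these 9 cells was not tested.

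Among single pairs, efnb2a was found in 19 of 21 cells with notch3 and in 7 of 21 without. For NOTCH1 these counts were 22 of 28 and 4 of 14. Arterial cells showed no such contrast, since all 8 with notch3 and all 5 without it held efnb2a, as did all 11 with NOTCH1 and both without. In venous cells and EPC together, efnb2a was present in 6 of 8 cells with notch3 and 1 of 14 without, and in 5 of 10 with NOTCH1 and 2 of 12 without.

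dlc was paired with hey2 in endothelial cells. Of 21 endothelial cells with dlc, all 21 held hey2, against 13 of 21 without dlc. How many genes detected about as often as hey2 were also found in all 21 was not tested. In tailbud cells hey2 was found in 3 of 8 with dlc and 6 of 20 without. In endothelial cells dlc was also found almost always with the other ligand, in that 20 of the 21 cells held dll4. By comparison dll4 was less selective: hey2 was detected in 29 of 34 cells with dll4 and in 5 of 8 without.

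**Figure D4:**
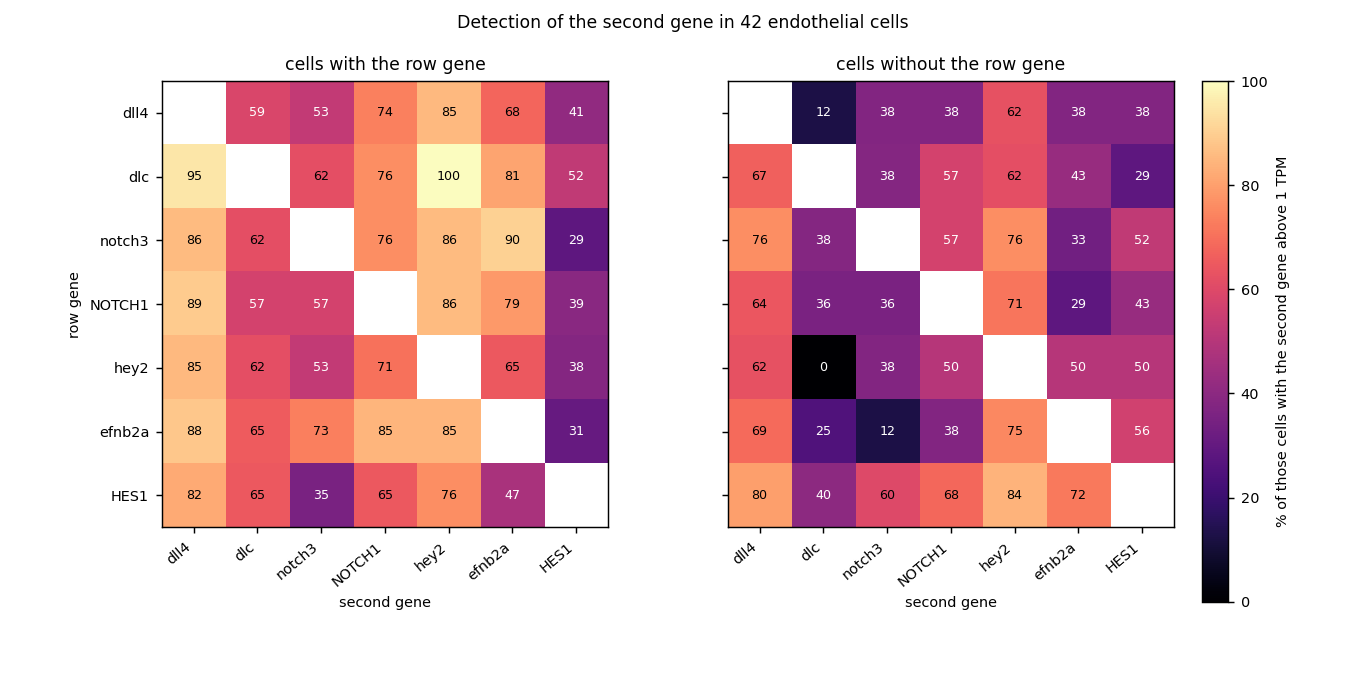
Percentage of endothelial cells in which a second gene (columns) was above 1 TPM, among cells with the row gene (left) and among cells without it (right). The row of dlc reaches 100% for hey2 on the left and 61.9% on the right, and the row of notch3 gives 90.5% and 33.3% for efnb2a.

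The levels of the members varied together only loosely. Over the 42 endothelial cells, Spearman rho for the 15 pairs of members lay between 0.11 and 0.60 with a median of 0.36. The 3 highest values were 0.60 for dll4 with dlc, 0.60 for notch3 with efnb2a and 0.58 for dlc with hey2, and the lowest was 0.11 for dlc with NOTCH1. Within stages, 15 pairs were positive at 20 somites and 13 at 15-18 somites. Cells of a stage share 1 sample, and populations differ in most members, so these values carry no test. HES1 had rho between -0.24 and 0.18 with the members.

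Genes with the most similar pattern were sought among 8233 genes detected in at least 10 of the 42 endothelial cells, by Pearson correlation of log2(TPM + 1). For dll4 these were si:ch211-156j16.1 (0.64), the actin-binding tmsb4x (0.62) and the VEGF receptor flt1 (0.59). For dlc they were the Wnt receptor FZD8 (0.74), the connexin gja4 (0.67) and CAVIN2 (0.65), a caveolar coat protein. efnb2a was closest to calcrla (0.68), a peptide hormone receptor needed for zebrafish arteries, and to adprhl1 (0.67) and the proteoglycan spock3 (0.67). notch3 was closest to the RNA-binding RBPMS2 (0.67), DOCK9 (3 of 3) (0.61) and IDI1 (0.60). NOTCH1 was closest to AL929022.1 (0.56), calcrla (0.55) and zc3h11a (0.54), and hey2 to FRYL (0.57), the endothelin receptor EDNRA (0.54) and DGKZ (0.54). HES1 was closest to tuba8l2 (0.55), ACTR6 (0.53) and PEX14 (0.52). FZD8 and PEX14 were detected in 10 endothelial cells, the minimum of the search. These values are the highest of 8233 over 42 cells. How high unrelated genes would reach in such a search was not tested, so they carry no evidence of a relation. Some members stood near the top of another's order, as dlc ranked 5 for dll4 and 6 for hey2. Others were far down, as notch3 ranked 391 for dll4. NOTCH1 ranked 1385 for dlc, 1589 for notch3 and 1243 for hey2.

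Further genes were read from lists of known Notch and ephrin genes, which also hold the members. With the members left out, the median arterial minus venous difference was 0.29 for 3 ligands, -0.45 for 14 processing genes, 0.55 for 6 genes of the nuclear complex, 0.18 for 8 targets, 0.79 for 5 inhibitors, -0.73 for 5 ephrins and receptors and 0.89 for 14 upstream inputs, beside -0.01 for all genes. The 3 entries of the ligand list include a gene listed as DLD (0.38), which was matched by letters alone. The other entries were jag1b (0.29) and jag2b (-1.76), so this median does not describe ligands with a settled name. The counts below are to be read beside the 16.9% of all genes that were higher and the 17.4% that were lower. Of 9 ligand names 8 were matched, the name dld only to a gene listed as DLD, and 5 passed the filter on low values. Of these 5, dll4 and dlc were higher and jag2b was lower in arterial than in venous cells. jag2b was detected in 39 of 42 endothelial cells and had levels of 3.60 in arterial cells and 5.36 in venous cells, a difference of -1.76. jag1b was higher in EC2 than in arterial cells by 1.37. A gene listed as DLD (ENSDARG00000008785) was detected in 5 of 5 erythrocytes, 9 of 10 epithelial cells and 9 of 11 macrophages, and in 24 of 42 endothelial cells. It matched the list name dld by letters alone, so it is not read as a Delta ligand here.

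All 3 receptors in the table were higher in arterial than in venous cells. notch2 had a level of 3.51 in arterial cells and 0.14 in venous cells, a difference of 3.38. Its level in EC2 was 0.70, a difference of -2.81 from arterial cells, and of the 3 receptors it alone passed 1 log2 unit in that comparison. notch2 was detected in 17 of 42 endothelial cells and in 23 of 54 others, so that unlike NOTCH1 it was not concentrated in endothelium.

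Of 14 genes that process ligands and receptors, 1 was higher and 6 were lower in arterial than in venous cells, where among all genes 16.9% were higher and 17.4% lower. LFNG, the Fringe glycosyltransferase that tunes which ligand a receptor answers, was the most endothelial of them. It was found in all 42 endothelial cells and in 16 of 54 others, 6.01 log2 units higher, with levels of 7.24, 7.76, 7.92 and 7.32 in EC2, arterial, venous and EPC cells. The protease ADAM17 (ENSDARG00000043213), the gamma-secretase subunits PSENEN and PSEN2, and the ubiquitin ligase NEURL1 had arterial minus venous differences of -2.02, -2.45, -1.64 and -1.76. POFUT1, which adds the O-fucose that Fringe extends, had 1.30. PSEN2 was detected in only 2 of 13 arterial and 3 of 8 venous cells. adam10a, the main receptor sheddase, was 2.92 higher in arterial cells than in EPC and 2.43 lower in EC2 than in arterial cells. POGLUT1 was 3.14 higher in EC2 than in arterial cells, with detection in 3 of 7 EC2 and 2 of 13 arterial cells.

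Of the 6 genes of the nuclear complex, 2 were higher in arterial than in venous cells and none lower, beside 16.9% and 17.4% of all genes. These were the co-activator SNW1 (2.90) and the acetyltransferase EP300 (1.08). RBPJ, the DNA-binding partner of Notch, had differences of 0.84 and 0.00 for its copies ENSDARG00000003398 and ENSDARG00000052091. Between EC2 and arterial cells MAML1, a co-activator that binds the complex, differed by 2.56, SNW1 by -2.30 and EP300 by -2.22. MAML1 was detected in only 4 of 7 EC2 and 1 of 13 arterial cells.

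Targets other than hey2 divided. Both NRARP copies, which encode feedback inhibitors of Notch, were widely detected in endothelium. NRARP ENSDARG00000018958 was 2.89 higher in arterial than in venous cells, and NRARP ENSDARG00000091419 was 3.66 higher in arterial cells than in EPC but 0.54 apart from venous cells. HEY1 had a level of 4.86 in EC2, 2.65 in arterial cells and 4.47 in venous cells. her15.1 was 1.77 higher and HES6 (ENSDARG00000019335) 1.56 lower in arterial than in venous cells. Only 3 of 13 arterial and 0 of 8 venous cells had her15.1. In all, 2 of 8 tested targets other than hey2 were higher and 2 lower, near the 16.9% and 17.4% of all genes. Of the inhibitors, 1 of 5 passed, dtx2, a Deltex ubiquitin ligase, at 1.19 higher in arterial than in venous cells and 3.04 lower in EC2 than in arterial cells.

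In the ephrin system a second gene listed as EFNB2 (ENSDARG00000074050) had levels of 7.45 in EC2 and 7.14 in arterial cells, against 4.54 in venous cells and 3.21 in EPC. It thus had the direction of efnb2a with a smaller arterial minus venous difference, 2.60. EFNB1 was 1.66 higher and EFNB3 1.02 lower in arterial than in venous cells. Few cells carried these differences, as EFNB1 was detected in 2 of 13 arterial and 0 of 8 venous cells. EFNB3 was detected in 3 arterial and 3 venous cells. The receptor gene ephb4b went the opposite way, with differences of -1.11 from venous cells and -2.64 from EPC, and its highest endothelial level was 3.62 in EPC. No entry named ephb4a was matched. Besides efnb2a, 2 of 5 genes of this system were higher in arterial than in venous cells and 2 were lower, beside 16.9% and 17.4% of all genes.

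**Figure D5:**
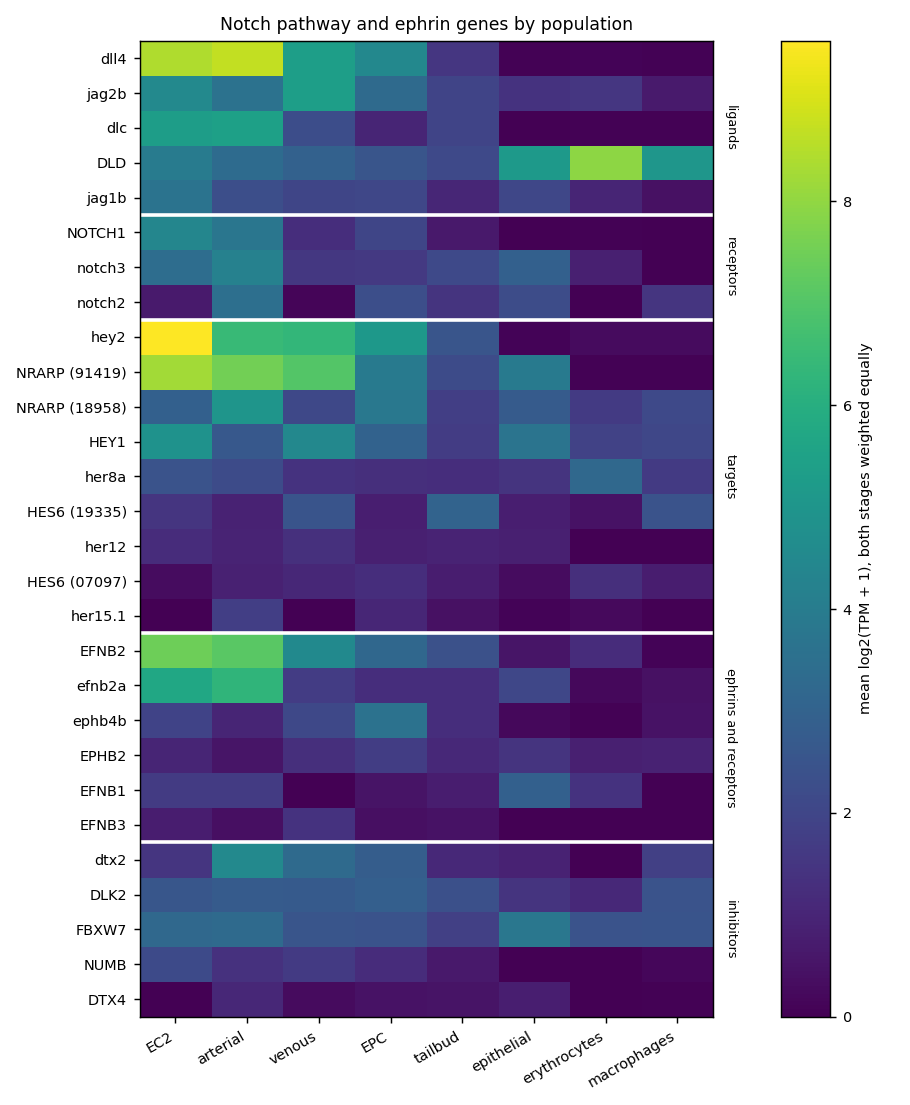
Mean log2(TPM + 1) with both stages weighted equally (colour) of Notch ligands, receptors, targets and inhibitors and of ephrins and their receptors (rows) in the 8 populations (columns); a number after a symbol gives the last digits of the identifier of 1 of several copies. hey2 is highest in EC2 (9.58) and dll4 in arterial cells (8.72). The gene listed as DLD, matched by letters alone and not read as a ligand, is highest in erythrocytes (7.93).

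Among the inputs known to act upstream of Notch in arteries, 5 of 14 genes were higher and 2 lower in arterial than in venous cells, beside 16.9% and 17.4% of all genes. Higher ones included the forkhead gene FOXC1 (2.50), the GATA factor gene gata2a (2.19) and the VEGF receptor gene kdrl (1.95). The lower ones were the ETS factor ERG (-2.91) and NR2F2 (-1.61), a nuclear receptor that opposes arterial fate in the mouse. SoxF factors, which bind the dll4 and notch enhancers, were broad, with SOX7 levels of 11.12 in arterial and 10.69 in venous cells.

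Cells with these genes also held venous markers, as did the endothelium as a whole. flt4, a VEGF receptor of veins, was detected in 28 of the 34 endothelial cells with dll4, in 28 of the 34 with hey2 and in 20 of the 26 with efnb2a, against 36 of all 42 endothelial cells. dab2, an endocytic adaptor of veins, was found in 12 of the 34 cells with dll4 and in 11 of the 26 with efnb2a, against 16 of all 42.

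Of the populations outside the 4 endothelial ones, only the tailbud population had cells with a ligand, a receptor and a target among the members. These 4 cells held 8, 7, 6 and 3 of 8 endothelial markers. The name tailbud is that of the study, and the population had a median of 4 endothelial markers and 1 of 9 presomitic markers. The presomitic median was also 1 in erythrocytes, epithelial cells and macrophages, but single markers differed. tbx16, msgn1 and tbx6 were detected in 5, 4 and 3 tailbud cells and in 0 cells of those populations. ripply1 was broad, in 9 tailbud cells, 4 epithelial cells, 4 erythrocytes and 6 macrophages, and mespaa was found only in 1 epithelial cell. Of the endothelial markers, etv2 and egfl7 were each detected in 52 of the 54 cells outside the endothelial populations. Tailbud cells had fewer genes, with a median of 3960.5 detected against 5356.5 in endothelial cells, and 6 of the 28 had under 3000. The part of this in their detection was not tested. In this population dll4 was detected in 6 of 28 cells, hey2 in 9, dlc in 8, notch3 in 12, efnb2a in 6 and NOTCH1 in 4. Endothelial transcripts moved with part of this detection, and their part in it was not tested. Of the 6 tailbud cells with dll4, 5 held at least 4 of 8 endothelial markers, against 12 of 22 without, and for hey2 the counts were 8 of 9 and 9 of 19. For dlc they were 4 of 8 and 13 of 20, and for notch3 5 of 12 and 12 of 16. Presomitic markers went with dlc instead. At least 2 of 9 were present in 4 of the 8 tailbud cells with dlc and 4 of 20 without, and in 0 of the 6 with dll4 and 8 of 22 without.

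The highest value of each member outside the endothelial populations was in a tailbud cell. At 15-18 somites a single cell had 1030 TPM of dll4, 1940 TPM of hey2 and 243 TPM of efnb2a with 8 of 8 endothelial and 0 of 9 presomitic markers. Another cell of that stage had 1850 TPM of dlc, with the remaining members under 1 TPM, 1 endothelial marker and 6 presomitic markers. At 20 somites the maxima were 528 TPM of notch3 in a cell with 7 endothelial markers, 551 TPM of efnb2a in a cell with 8, and 106 TPM of NOTCH1 in a cell with 4.

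Between stages, differences were taken within each endothelial population and averaged over the 4 populations. Higher at 20 somites than at 15-18 somites were 2 of the 6 members, dlc by 2.31 and notch3 by 1.15, and dll4 was lower, at -1.52. Of all genes, 8.13% were higher and 13.0% lower by as much. The other differences were 0.62 for hey2, 0.17 for NOTCH1 and 0.01 for efnb2a.

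These means joined unlike values. The dll4 difference was 1.72 in arterial cells, -0.68 in EC2, -1.58 in EPC and -5.53 in venous cells, with the largest size in venous cells. The dlc difference was 4.85 in arterial cells and 4.07 in EC2, against -0.13 in venous cells and 0.45 in EPC. notch3 differed by 2.17 in arterial cells, 1.56 in EC2, 1.30 in venous cells and -0.41 in EPC. With 2 EC2 cells at 15-18 somites and 3 arterial cells at 20 somites, single cells weigh heavily in these figures.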

How the data were processed

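Single cells were captured on a Fluidigm C1 system and each gene's value in each cell was deposited by the authors as TPM, a length-normalised abundance that sums to 1000000 per cell. The submitters' processing notes name kallisto and the Zv9 build, without versions. The authors also deposited a grouping of the cells and a table of population markers, of which the symbols were read and the population values on a log2 scale were not used. Doublets were not removed, and no cell was left out. Levels were taken as log2(TPM + 1), detection as above 1 TPM. Comparisons of endothelial populations used genes detected in at least 5 of 42 endothelial cells, and the comparison with other populations genes detected in at least 5 of 96 cells. Symbols came from the name table and matched 20017 of 27931 identifiers (71.7%). No fit across genes or test was run, with 1 sample per stage. Shares have exact 95% intervals from scipy 1.17.1. Tables were read with pandas 2.3.3 and numpy 2.4.6. The calculations were checked on simulated data. Named were the members, from each list the genes past 1 log2 unit (at most the 4 largest each way per comparison), and the 3 most similar genes per member. One gene that this rule would name is not reported here. Other genes named were chosen after their values were seen. The members and lists were chosen with earlier results of these data known. Alternatives were another pseudocount (0.1 or 5), no filter, medians, pooled cells, single stages, leaving out cells under 3000 genes, and other detection minimums (0, 5 and 10 TPM).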

Additional observations from a re-analysis of the deposited data

Results flagged for a closer look

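4 differences between populations pointed in opposite directions at the 2 stages and passed 1 log2 unit at 1 of them, and whether the stages truly differ there was not tested. dll4 in arterial minus venous cells was 6.97 log2 units at 20 somites and -0.29 at 15-18 somites. dll4 in EC2 minus arterial cells was -1.47 at 20 somites and 0.93 at 15-18 somites. hey2 in arterial minus venous cells was 1.096 at 20 somites and -0.83 at 15-18 somites. efnb2a in EC2 minus arterial cells was -1.24 at 20 somites and 0.18 at 15-18 somites.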

How the results depend on the processing

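Of 231 alternative values for single genes, 18 differed in sign from the main value or were 0. In 16 of these the main difference was itself under 1 log2 unit, as for hey2 in arterial minus venous cells (0.14, and -0.83 at 15-18 somites alone) and for dll4, dlc, notch3 and efnb2a in EC2 minus arterial cells. There dlc was -0.12, and 2.06 with all cells pooled. Values that moved by more than 1 SD over endothelial cells, or reversed from a main difference of at least 1 log2 unit, were dll4 in arterial minus venous cells, at -0.29 in 15-18 somites alone and 6.97 in 20 somites alone, and HES1 between stages, at 0.16 with all endothelial cells of a stage pooled, against -1.06. Counts of genes depended on the pseudocount. With 0.1 they were 3745 higher and 1352 lower for endothelial minus other populations, 3005 and 3074 for arterial minus venous, 2545 and 3321 for arterial minus EPC, 2299 lower for EC2 minus arterial, and 1779 and 2709 between stages. With 5 they were 1215 and 253, 1111 and 1133, 1042 and 1115, 1685 and 871, and 398 and 665 in the same order of comparisons. At a pseudocount of 1 they were 2152 and 622, 1942 and 2009, 1690 and 2092, 2811 and 1518, and 937 and 1497. In 20 somites alone, 1319 genes were lower for endothelial minus other populations, 2618 higher and 3224 lower for arterial minus EPC, and 2494 lower for EC2 minus arterial. The causes were not tested. The share of endothelial cells with ligand, receptor and target was 42.9% without dll4 and 45.2% without NOTCH1, against 69.0%. With HES1 counted as a target, an alternative chosen after seeing the data, it was 71.4%. No paired analysis was possible because each stage was 1 sample. Cells of a stage are not replicates, and the read depth of each single cell was unknown, so that a transcript under 1 TPM was not detected rather than absent.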
